A study of Mus musculus with 11 samples.

Results

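The genes described here are the families that steer growing axons and migrating cells: the semaphorins with their plexin and neuropilin receptors, the netrins with Dcc and the Unc5 receptors, the Slits with the Robo receptors, and the ephrins with the Eph receptors. Membership was set by gene symbol, from transcript clusters (the array's unit for a gene or part of one) whose annotation gives a single symbol. The set was chosen with earlier results of these data known. The rule found 66 of the 19935 genes measured, made up of 20 semaphorins, 11 plexins and neuropilins, 7 netrin-pathway genes, 7 Slit and Robo genes, 5 ephrin-A and 9 EphA genes, and 3 ephrin-B and 4 EphB genes. Ephb2 was not analysed here. The samples were mouse embryonic stem cells (ESCs) on 11 one-colour Affymetrix arrays. The 4 groups were Bmpr1a-/- cells after 3 days in N2B27 (n = 3), control cells after 3 days in N2B27 (n = 3), Bmpr1a-/- cells in ESC medium (n = 2, numbered 2 and 3) and control cells in ESC medium (n = 3). Control cells were the wild-type line E14. Mutant cells were of the lines C1-6, Fr124 and Fr88, without a label for the line on each array, and mutant array 1 in ESC medium was not analysed here. All controls are thus of 1 line, so the loss of Bmpr1a and other differences between lines cannot be told apart. Whether the mutant arrays in the 2 media hold the same lines is not labelled. Differences between lines may therefore also enter the medium comparison in mutant cells and the interaction.

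Axon guidance cues were first known from the nervous system, where ligands on or released by one cell attract or repel another. The same families act in early embryos, where Eph receptors and ephrins sort cells at tissue boundaries and semaphorins and Slits direct migrating cells. Bmpr1a encodes a type I receptor of the BMPs (bone morphogenetic proteins), which help to keep mouse ESCs undifferentiated and hold back neural fate. N2B27, a medium without serum, lets ESCs exit pluripotency and turn towards neural fate.

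The deposited values are log2 values, each relative to a baseline of the transcript cluster's own that the labels do not explain. A difference between groups keeps its meaning on this scale, while the levels of 2 genes cannot be set against each other and no gene can be called high or absent. Bmpr1a itself stood at 0.15, -0.14 and -0.05 in mutant N2B27 arrays, against 0.61, 0.68 and 0.76 in control N2B27 arrays. In ESC medium it stood at -0.03 and 0.00 in mutant arrays, against 0.37, 0.16 and 0.25 in control arrays. It was lower in mutant cells in N2B27, with a log2 difference of -0.70 ± 0.09 (SE, limma adjusted p = 0.00211). The difference of -0.27 ± 0.10 in ESC medium did not pass the test (limma adjusted p = 0.145). The groups did not overlap in either medium. Deviations from the group means had a root mean square of 0.0774 to 0.155 on 10 arrays and 0.185 on mutant N2B27 replicate 2. This was the largest, followed by 0.155 on mutant N2B27 replicate 1. The 2 mutant ESC arrays, at 0.0774 each, are equal because their group holds 2 arrays. All 8 markers of naive pluripotency fell in N2B27 in both genotypes, with a median log2 difference of -2.49 in mutant and -2.47 in control cells. Chromosomes 8 and X ran high in mutant cells: in ESC medium the median genotype difference was 0.117 on chromosome 8 and 0.09 on X, against -0.015 on the other autosomes. In N2B27 it was 0.17 on chromosome 8 and 0.026 on X, against -0.005 on the other autosomes.

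A gene is called here where its Benjamini-Hochberg adjusted p from limma was under 0.05 over all 19935 genes, and differences are given as log2 difference ± SE. Whether the arrays of 1 group stand for separate cultures is not labelled, and p can then reflect technical spread alone. Over the 66 genes, 28 were called for N2B27 against ESC medium in mutant cells (42.4%, where 25.2% of all genes were called), of which 24 were higher and 4 lower, against 14.9% and 10.3% of all genes. In control cells 23 were called (34.8%, against 26.1% of all genes), 18 of them higher and 5 lower, against 12.8% and 13.3% of all genes. Between genotypes in ESC medium 11 were called (16.7%, against 6.14% of all genes), 1 higher and 10 lower in mutant cells, against 3.09% and 3.05% of all genes. In N2B27 4 were called (6.06%, against 5.74%), 1 higher and 3 lower in mutant cells, against 4.1% and 1.64% of all genes. The interaction, taken as mutant minus control in N2B27 less mutant minus control in ESC medium, was called for 5 genes, all positive (7.58%, against 2.12% of all genes). No gene of the set had a called negative interaction in limma, beside 110 of all 19935 genes. At an unadjusted limma p under 0.05, 2 of the 66 were negative, beside 950 of all 19935 genes, and 15 were positive, beside 1775. The median log2 difference of the 66 genes was 0.18 for medium in mutant cells, 0.12 for medium in control cells, -0.11 for genotype in ESC medium, -0.03 for genotype in N2B27 and 0.07 for the interaction, beside 0.01, 0.02, -0.01, 0.00 and 0.01 over all genes in the same order. The comparisons share arrays, since each group enters 2 of the pairwise comparisons and the interaction, so their values are given side by side. The cultures were measured in bulk, so fewer cells of a type and less RNA per cell cannot be told apart.

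**Figure D1:**
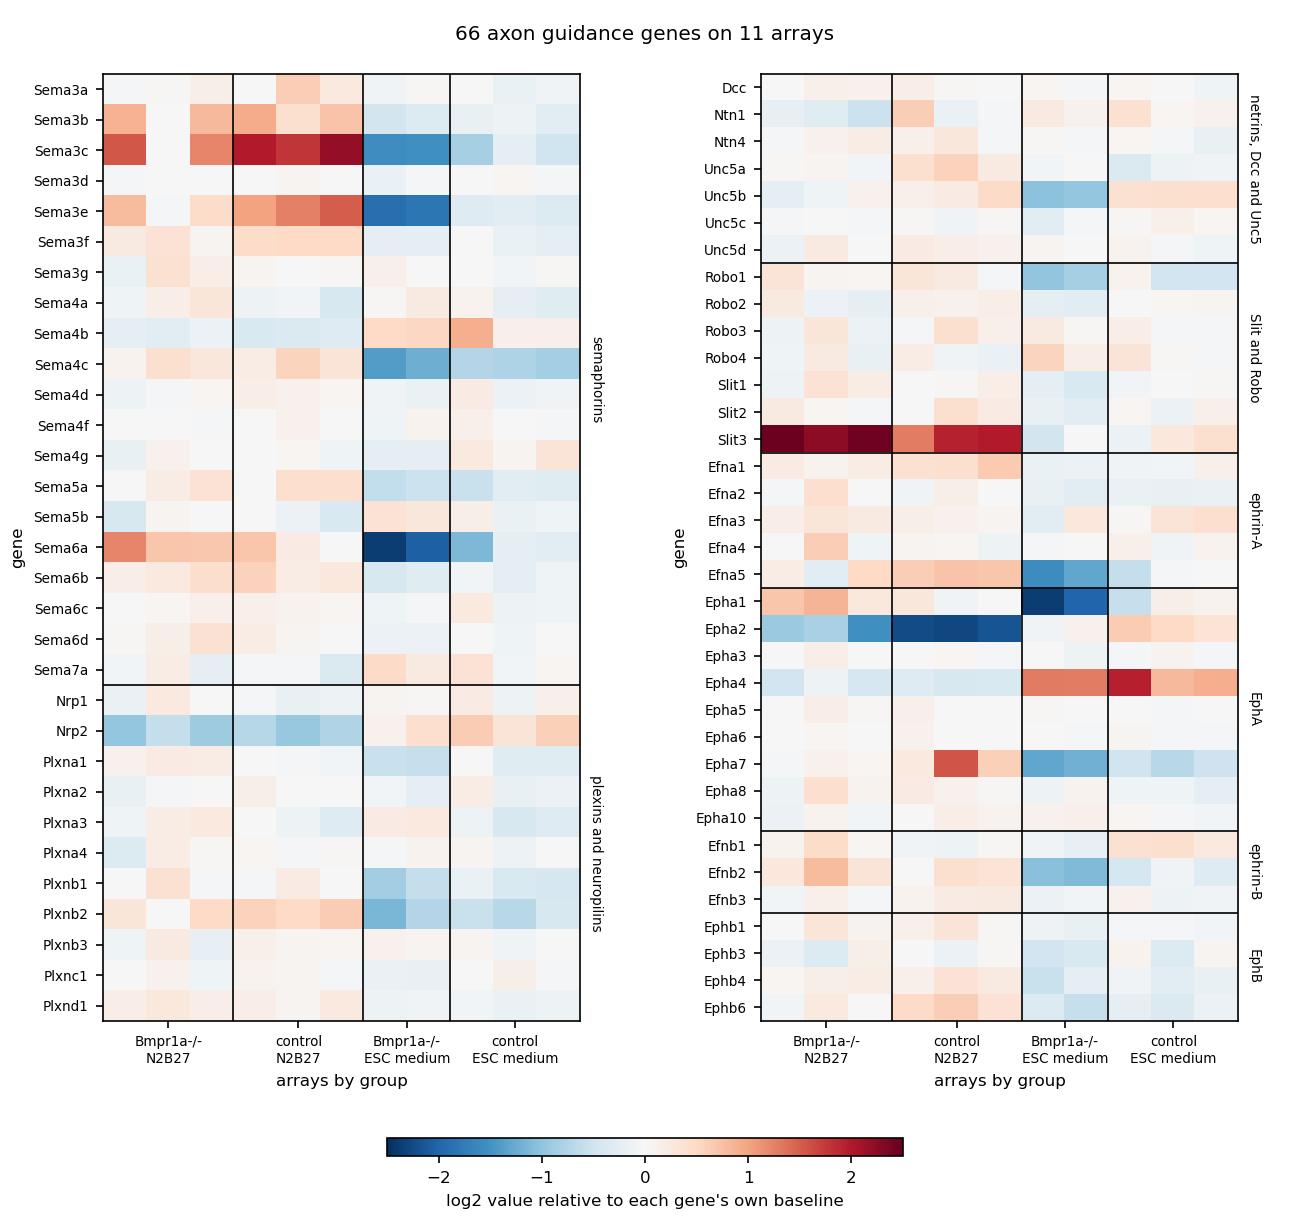
Values of the 66 genes (rows, by family) on the 11 arrays (columns, by group), coloured by the log2 value relative to each gene's own baseline. The largest blocks of colour separate N2B27 from ESC medium, and 34 of the 66 genes were called in no comparison.

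The calls between genotypes that held under every alternative setting tried were those of Epha1, Sema3e and Unc5b in ESC medium and of Epha2 in N2B27, and the promoters of these 4 genes are shown for that reason. Each sequence covers 250 bases before to 50 bases after the RefSeq transcription start in build GRCm38.p6, read 5′ to 3′ on the strand of the gene. They lie at chr6:42373219-42373518 on the minus strand for Epha1, chr4:141300971-141301270 on the plus strand for Epha2, chr5:14025026-14025325 on the plus strand for Sema3e and chr10:60831532-60831831 on the minus strand for Unc5b. Capitals mark 2 motifs of the SMAD proteins that carry BMP signals, and the same search was made for the octamer of POU factors.
Epha1: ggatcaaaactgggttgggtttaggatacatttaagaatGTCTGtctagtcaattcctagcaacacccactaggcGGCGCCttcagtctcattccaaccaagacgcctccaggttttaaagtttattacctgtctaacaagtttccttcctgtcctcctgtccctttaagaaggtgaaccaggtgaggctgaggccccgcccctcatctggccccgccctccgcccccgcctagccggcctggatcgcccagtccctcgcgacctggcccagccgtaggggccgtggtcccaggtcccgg
Epha2: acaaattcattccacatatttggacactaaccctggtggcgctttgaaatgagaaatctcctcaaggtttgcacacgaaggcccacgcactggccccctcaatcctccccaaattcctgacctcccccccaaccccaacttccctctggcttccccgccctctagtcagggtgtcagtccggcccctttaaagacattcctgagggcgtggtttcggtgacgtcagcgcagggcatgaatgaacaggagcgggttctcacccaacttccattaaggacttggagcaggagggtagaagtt
Sema3e: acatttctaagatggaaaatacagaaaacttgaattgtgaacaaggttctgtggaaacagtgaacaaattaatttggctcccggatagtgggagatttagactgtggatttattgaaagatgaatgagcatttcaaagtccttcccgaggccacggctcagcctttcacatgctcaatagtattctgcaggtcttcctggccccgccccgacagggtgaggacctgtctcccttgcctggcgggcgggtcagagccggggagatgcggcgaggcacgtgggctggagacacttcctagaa
Unc5b: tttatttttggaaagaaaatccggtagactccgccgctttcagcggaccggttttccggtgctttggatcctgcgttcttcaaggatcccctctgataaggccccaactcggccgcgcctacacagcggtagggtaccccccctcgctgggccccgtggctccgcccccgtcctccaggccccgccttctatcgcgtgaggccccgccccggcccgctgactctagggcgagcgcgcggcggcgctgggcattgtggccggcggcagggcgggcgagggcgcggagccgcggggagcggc
The motifs searched on both strands were CAGAC (the SMAD box, in 49.6% of 32851 promoter windows of this length), GGCGCC (a GC-rich box of SMAD1 and SMAD5, in 11.9%) and ATGCNAAT (the octamer, in 3.15%). In Epha1, CAGAC lies on the opposite strand, so that it reads GTCTG here, with its first base at -211 from the start, and GGCGCC begins at -175. None of these letters occurs in the other 3 windows. GC content was 58.0% in Epha1, 54.7% in Epha2, 50.7% in Sema3e and 69.7% in Unc5b, against a median of 52.7% over all windows. A match of letters is a description of the window, and of the 66 genes 56 have a window in the table.

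Among the semaphorins, which are secreted or membrane-bound ligands, the secreted class 3 ligands Sema3c and Sema3e rose with N2B27 in both genotypes, and Sema6a rose most in mutant cells. In mutant cells 9 of the 20 semaphorins rose and 1 fell, against 14.9% and 10.3% of all genes. In control cells 8 rose and 1 fell, against 12.8% and 13.3% of all genes. Sema3c, a secreted semaphorin that acts through neuropilins and plexins, stood at 1.56, 0.00 and 1.23 in mutant N2B27 arrays, against -1.56 and -1.54 in mutant ESC arrays. In control cells its values were 1.99, 1.78 and 2.19 in N2B27, against -0.83, -0.25 and -0.49 in ESC medium. Every N2B27 array lay above every ESC array, with mutant N2B27 replicate 2 the lowest of the N2B27 arrays. Sema3c rose by 2.48 ± 0.37 in mutant cells (limma adjusted p = 0.000875) and by 2.51 ± 0.33 in control cells (limma adjusted p = 0.000468). Its difference between genotypes was -1.06 ± 0.33 in N2B27 and -1.02 ± 0.37 in ESC medium, neither of which was called (limma adjusted p = 0.101 and 0.163), although mutant and control arrays overlapped in neither medium. The difference in ESC medium was called without mutant N2B27 replicate 2 (limma adjusted p = 0.00747), with the compared groups alone (limma adjusted p = 0.0261) and with array weights (limma adjusted p = 0.00404). That in N2B27 was called without mutant N2B27 replicate 1 (-1.37, limma adjusted p = 0.0412) and with array weights (-0.81, limma adjusted p = 0.0211).

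Sema3e, a secreted semaphorin that binds Plxnd1 directly, was lower in mutant cells in both media, and it was the 1 gene of the set called between genotypes in both. It stood at 0.79, -0.02 and 0.45 in mutant N2B27 arrays, against 1.00, 1.25 and 1.51 in control N2B27 arrays. The ESC arrays gave -1.89 and -1.81 in mutant arrays, against -0.33, -0.29 and -0.34 in control arrays. All mutant arrays lay below all control arrays of the same medium, and all N2B27 arrays above all ESC arrays of either genotype. The genotype difference was -1.53 ± 0.20 in ESC medium (limma adjusted p = 0.00224) and -0.85 ± 0.18 in N2B27 (limma adjusted p = 0.0266), and the interaction of 0.68 ± 0.27 was not called (limma adjusted p = 0.292), though it was without mutant N2B27 replicate 2 (0.90, limma adjusted p = 0.0474). The call in N2B27 was lost on leaving out control N2B27 replicate 2 or 3 or mutant N2B27 replicate 3 (limma adjusted p between 0.0528 and 0.103). It was also lost with the compared groups alone (limma adjusted p = 0.112). Sema3e rose with N2B27 by 2.26 ± 0.20 in mutant and 1.58 ± 0.18 in control cells.

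Sema6a, a transmembrane semaphorin that binds class A plexins, had a positive interaction and was lower in mutant cells kept in ESC medium. Its values were 1.22, 0.70 and 0.67 in mutant N2B27 arrays, against 0.70, 0.21 and 0.00 in control N2B27 arrays. In ESC medium they were -2.38 and -2.04 in mutant arrays, against -1.12, -0.22 and -0.26 in control arrays. The genotypes overlapped in N2B27 and did not in ESC medium. The difference in ESC medium was -1.68 ± 0.30 (limma adjusted p = 0.00905), or 3.20-fold lower, and this call was lost without mutant ESC replicate 2 (limma adjusted p = 0.111). In N2B27 the difference was 0.56 and not called (limma adjusted p = 0.284). Sema6a rose with N2B27 by 3.07 ± 0.30 in mutant cells, the largest medium difference of the set, and by 0.83 ± 0.26 in control cells (limma adjusted p = 0.0412). The call in control cells was lost with the replicate number as a block (limma adjusted p = 0.0591) and on leaving out any 1 of 6 arrays (limma adjusted p between 0.0518 and 0.148). It was also lost with the compared groups alone, with array weights and with clusters one by one (limma adjusted p = 0.0681, 0.0505 and 0.0558). The interaction was 2.24 ± 0.40 (limma adjusted p = 0.0213), and it too was lost on leaving out any 1 of 6 arrays, which included both mutant ESC arrays (limma adjusted p between 0.0561 and 0.124).

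Sema4c, a transmembrane ligand of Plxnb2, stood at 0.09, 0.41 and 0.28 in mutant N2B27 arrays, against -1.40 and -1.23 in mutant ESC arrays. In control cells it stood at 0.19, 0.55 and 0.32 in N2B27, against -0.74, -0.77 and -0.84 in ESC medium. The media did not overlap in either genotype, and both mutant ESC arrays lay below all control ESC arrays. Sema4c rose with N2B27 by 1.57 ± 0.12 in mutant and 1.14 ± 0.11 in control cells. In ESC medium it was lower in mutant cells with a difference of -0.53 ± 0.12 (limma adjusted p = 0.0258), a call that ended on leaving out any 1 of the 5 ESC arrays (limma adjusted p between 0.0547 and 0.242). Smaller rises in both genotypes were called for Sema3b (0.96 in mutant and 0.88 in control cells), Sema5a (0.75 and 0.65), Sema6b (0.64 and 0.48) and Sema3f (0.43 and 0.62), a ligand of Nrp2. Sema4b, a transmembrane semaphorin, fell by 0.74 in both genotypes. In mutant cells the calls of Sema3b, Sema3f and Sema4b were each lost on leaving out either mutant ESC array (limma adjusted p between 0.0514 and 0.1). Sema6d rose in mutant cells by 0.32 (limma adjusted p = 0.0385), while its difference in control cells was 0.13 and not called. Leaving out any 1 of 6 arrays ended the call of Sema6d (limma adjusted p up to 0.162). Sema4g was lower in mutant cells in ESC medium with a difference of -0.45 ± 0.10 (limma adjusted p = 0.0284). That call was lost on leaving out control ESC replicate 1 or 3 or either mutant ESC array (limma adjusted p between 0.0583 and 0.171). The 9 other semaphorins were called in no comparison.

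Of the 11 receptors of the semaphorins, Nrp2 fell with N2B27 in both genotypes, while 4 plexins rose in mutant cells and 2 in control cells. Of all genes, 14.9% rose and 10.3% fell in mutant cells, and 12.8% rose and 13.3% fell in control cells. Nrp2, a neuropilin that binds Sema3f and works with class A plexins, stood at -0.96, -0.59 and -0.88 in mutant N2B27 arrays, against 0.11 and 0.42 in mutant ESC arrays. Control cells gave -0.72, -0.94 and -0.76 in N2B27, against 0.63, 0.33 and 0.59 in ESC medium. The media did not overlap, and the genotypes did in both media. Nrp2 fell by 1.07 in mutant cells (SE 0.14, limma adjusted p = 0.000427) and by 1.32 in control cells (SE 0.13, limma adjusted p = 8.5e-05). The related coreceptor Nrp1 was called in no comparison.

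Plxnb2, a receptor of class 4 semaphorins, stood at 0.30, 0.00 and 0.50 in mutant N2B27 arrays, against -1.14 and -0.73 in mutant ESC arrays. Control cells gave 0.58, 0.49 and 0.63 in N2B27, against -0.56, -0.69 and -0.41 in ESC medium. All N2B27 arrays lay above all ESC arrays. It rose by 1.2 ± 0.16 in mutant and 1.12 ± 0.14 in control cells. Plxnd1, the receptor of Sema3e, rose by 0.30 in mutant cells, a call lost without mutant ESC replicate 2 (limma adjusted p = 0.0802), and by 0.27 in control cells. Plxna1 and Plxnb1 rose in mutant cells, by 0.73 ± 0.09 and 0.84 ± 0.14. In control cells their differences of 0.18 and 0.37 were not called, and neither interaction was (limma adjusted p = 0.0517 for Plxna1). The interaction of Plxna1 was called without control ESC replicate 1 (0.45, limma adjusted p = 0.026), with array weights (0.51, limma adjusted p = 0.0086) and with median centring (0.56, limma adjusted p = 0.0442). Between genotypes in ESC medium, Plxna1 was lower in mutant cells with a difference of -0.36 ± 0.09 (limma adjusted p = 0.047), a call that ended on leaving out any 1 of 9 arrays (limma adjusted p up to 0.239). The call of Plxna1 also ended with the replicate block (limma adjusted p = 0.0741) and the compared groups alone (limma adjusted p = 0.121). It ended as well with a trended prior, without chromosomes 8, X and Y and with clusters one by one (limma adjusted p = 0.0516, 0.059 and 0.051). Plxna3, on chromosome X, was the 1 gene of the set higher in mutant cells in ESC medium, at 0.20 and 0.25 in mutant against -0.13, -0.41 and -0.33 in control arrays (0.52 ± 0.13, limma adjusted p = 0.0402). It was called no longer on leaving out control ESC replicate 2 or 3, either mutant ESC array or control N2B27 replicate 2 (limma adjusted p between 0.0637 and 0.211), and the part of the X-wide shift given above in its difference was not tested. In N2B27 none of the 11 was called between genotypes by limma. At an unadjusted limma p under 0.05, 2 were higher, beside 2324 higher and 1532 lower of all 19935 genes. With the replicate block, Plxnb2 was called lower there in mutant cells with a difference of -0.30 (limma adjusted p = 0.0441).

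**Figure D2:**
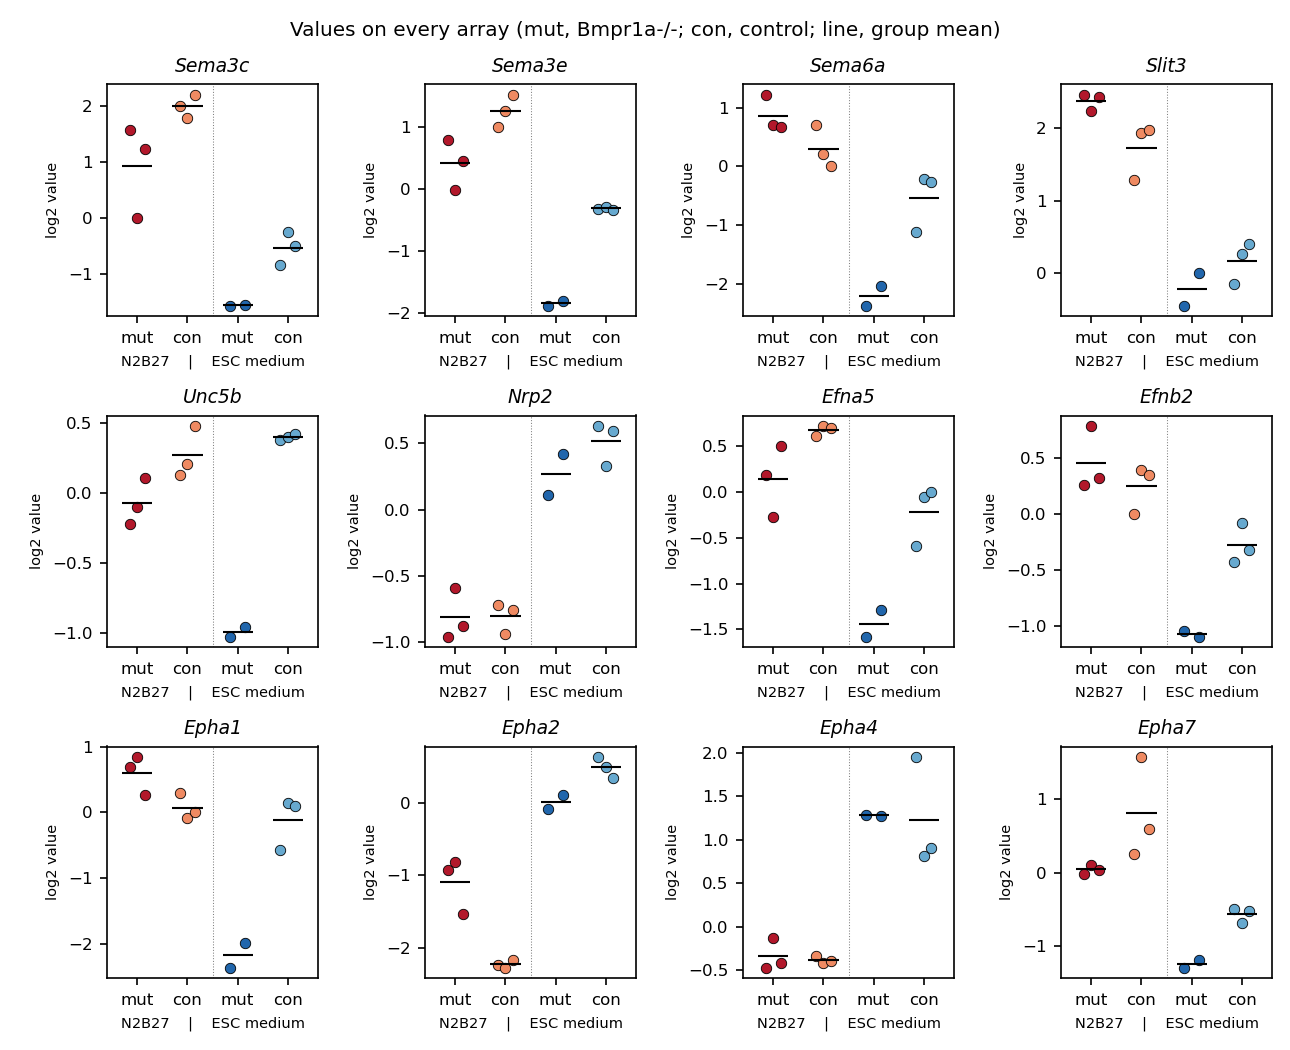
Values of 12 genes on every array (points) with group means (lines), on the log2 scale relative to each gene's own baseline, mutant left of control in each medium. Sema3c, Sema3e, Sema6a, Unc5b, Efna5, Efnb2, Epha1 and Epha7 are lowest in the 2 mutant ESC arrays, and Epha2 is lowest in the 3 control N2B27 arrays.

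In the netrin group, 2 of the 7 genes were called in any comparison, both of them Unc5 receptors, which pass on the repulsive effect of netrins. Unc5b stood at -0.22, -0.10 and 0.11 in mutant N2B27 arrays, against 0.13, 0.21 and 0.48 in control N2B27 arrays. Its values in ESC medium were -1.03 and -0.96 in mutant arrays, against 0.38, 0.40 and 0.42 in control arrays. The mutant ESC arrays lay below all other arrays. Unc5b was lower in mutant cells in ESC medium with a difference of -1.39 ± 0.11 (limma adjusted p = 0.000175), or 2.62-fold, which was the smallest adjusted p of the set between genotypes. In N2B27 the genotypes did not overlap either, and with the replicate block Unc5b was called lower in mutant cells (-0.34, limma adjusted p = 0.0259). With N2B27 it rose by 0.92 ± 0.11 in mutant cells, against a difference of -0.12 in control cells that was not called. The interaction was 1.05 ± 0.15 (limma adjusted p = 0.0104), and without mutant ESC replicate 2 it was not called (limma adjusted p = 0.0693).

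Unc5a changed with the medium in control cells. Its values were 0.02, 0.07 and -0.07 in mutant N2B27 arrays, against 0.41, 0.57 and 0.23 in control N2B27 arrays, and the genotypes did not overlap. In ESC medium they were -0.06 and 0.00 in mutant arrays, against -0.37, -0.12 and -0.09 in control arrays. In control cells it rose by 0.60 ± 0.10 with N2B27 (limma adjusted p = 0.00163), against 0.04 in mutant cells, which was not called. In N2B27 it was lower in mutant cells with a difference of -0.40 ± 0.10 (limma adjusted p = 0.0445). That call ended on leaving out any 1 of 9 arrays (limma adjusted p up to 0.142). It also ended with the compared groups alone, without chromosomes 8, X and Y and with clusters one by one (limma adjusted p = 0.103, 0.0573 and 0.0525). The interaction of -0.56 ± 0.15 was not called (limma adjusted p = 0.0959), though it was with array weights (-0.56, limma adjusted p = 0.0277). Ntn1, the classic netrin, varied most among the genes never called, over 1.15 across the 11 arrays. It stood at -0.20, -0.31 and -0.53 in mutant N2B27 arrays, against 0.62, -0.17 and -0.03 in control N2B27 arrays, and with the replicate block it was called lower in mutant cells (-0.48, limma adjusted p = 0.0373). Its difference of -0.51 with N2B27 in mutant cells was not called. That fall was called without control N2B27 replicate 1 (limma adjusted p = 0.0155) and with the compared groups alone (limma adjusted p = 0.0335). It was also called with the replicate block (-0.65, limma adjusted p = 0.00643) and with array weights (-0.65, limma adjusted p = 0.0103). Dcc, the attractive netrin receptor, stayed within a range of 0.26 over all arrays.

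Slit3, a secreted ligand of Robo receptors, rose with N2B27 in both genotypes. It stood at 2.46, 2.24 and 2.43 in mutant N2B27 arrays, against -0.45 and 0.00 in mutant ESC arrays. The control values were 1.28, 1.93 and 1.98 in N2B27, against -0.15, 0.26 and 0.41 in ESC medium. All mutant N2B27 arrays lay above all control N2B27 arrays, and these above all ESC arrays. Slit3 rose by 2.60 ± 0.23 in mutant cells (limma adjusted p = 5.13e-05), or 6.06-fold, and by 1.56 ± 0.20 in control cells (limma adjusted p = 0.000467), or 2.94-fold. The genotype difference of 0.65 ± 0.20 in N2B27 was not called (limma adjusted p = 0.104), but with the replicate block it was (0.65, limma adjusted p = 0.0383). The interaction of 1.04 ± 0.31 was not called (limma adjusted p = 0.133), but was with the replicate block (1.16, limma adjusted p = 0.0386) and with array weights (1.07, limma adjusted p = 0.0234). Slit1 rose in mutant cells by 0.45 (limma adjusted p = 0.021), against 0.07 in control cells, which was not called. The call was lost without either mutant ESC array or mutant N2B27 replicate 3 (limma adjusted p between 0.0576 and 0.158).

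Robo1, a Slit receptor, gave 0.32, 0.07 and 0.05 in mutant N2B27 arrays, against -0.98 and -0.83 in mutant ESC arrays. In control cells it gave 0.30, 0.23 and -0.03 in N2B27, against 0.08, -0.48 and -0.47 in ESC medium. Both mutant ESC arrays lay below all others, and control cells overlapped between media. Robo1 rose with N2B27 by 1.05 ± 0.17 in mutant cells (limma adjusted p = 0.00147). The difference in control cells was 0.46 ± 0.15 and was not called (limma adjusted p = 0.052), while with the replicate block it was (limma adjusted p = 0.0084). None of the 7 Slit and Robo genes was called between genotypes by limma in either medium. At an unadjusted limma p under 0.05, 3 of the 7 were lower in mutant cells in ESC medium, beside 1994 lower and 1545 higher of all 19935 genes. In N2B27 1 of the 7 was higher, beside 2324 higher and 1532 lower of all genes. For Robo1 the genotype difference in ESC medium was -0.61 ± 0.17 (limma adjusted p = 0.0677).

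**Figure D3:**
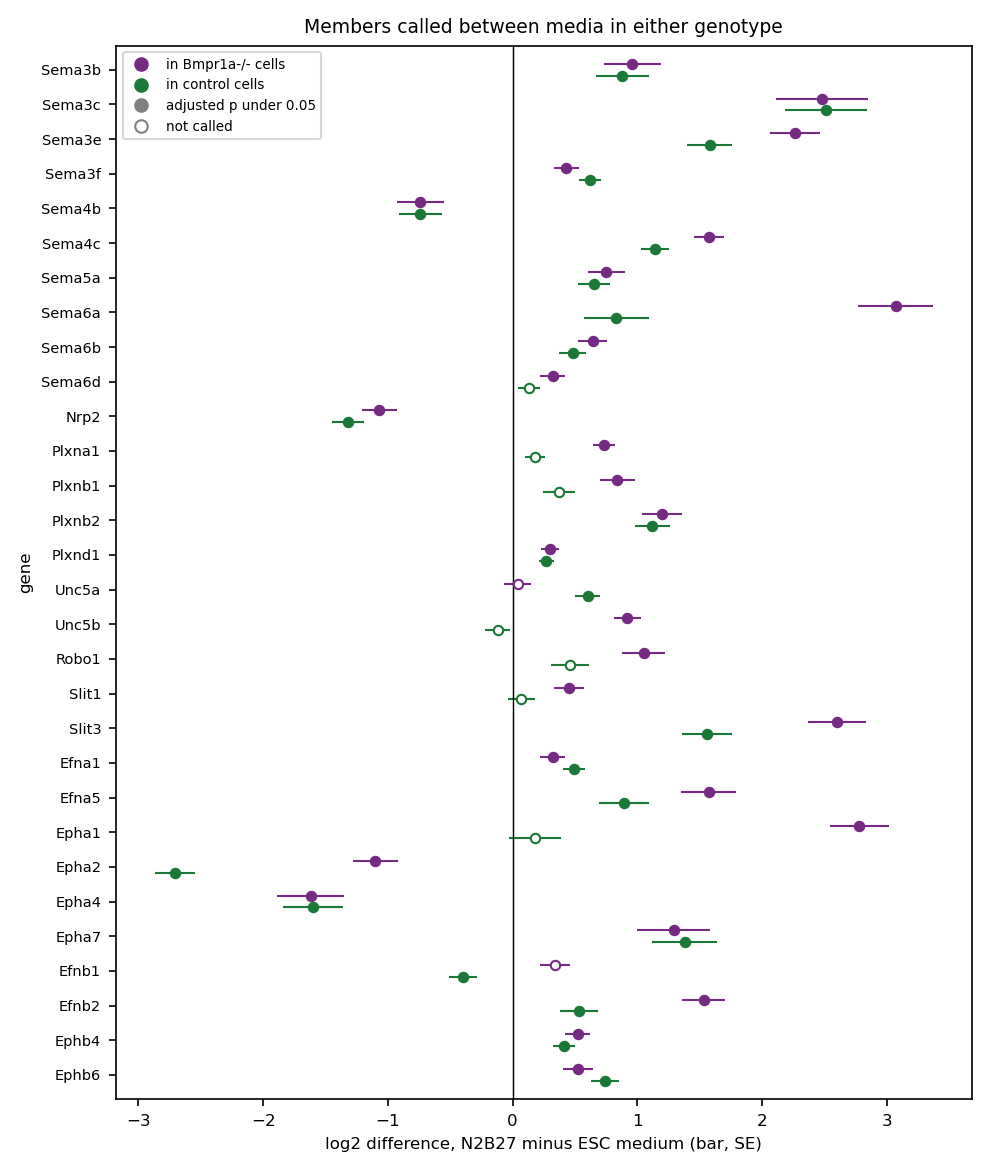
Log2 difference of N2B27 minus ESC medium for the 30 genes called in mutant or control cells (rows), with bars of 1 SE and filled points for limma adjusted p under 0.05. Of the 30, 17 rose in both genotypes and 4 fell in both, and Epha1 and Sema6a show the widest gaps between genotypes.

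Ephrins are membrane-bound ligands, the A class held by a lipid anchor and the B class by a transmembrane segment. Of the 5 ephrin-A genes, 2 rose with N2B27 in both genotypes, where 14.9% of all genes rose in mutant and 12.8% in control cells. Efna5 stood at 0.19, -0.27 and 0.50 in mutant N2B27 arrays, against 0.61, 0.72 and 0.70 in control N2B27 arrays. In ESC medium the values were -1.58 and -1.29 in mutant arrays, against -0.59, -0.05 and 0.00 in control arrays. Mutant arrays lay below control arrays in each medium. The genotype difference was -1.22 ± 0.22 in ESC medium (limma adjusted p = 0.0103), lost without mutant ESC replicate 2 (limma adjusted p = 0.124), and -0.54 ± 0.20 in N2B27, which was not called (limma adjusted p = 0.158). Efna5 rose with N2B27 by 1.57 ± 0.22 in mutant and 0.89 ± 0.20 in control cells. Efna1 rose by 0.32 in mutant cells, a call that any 1 of 5 omitted arrays ended (limma adjusted p up to 0.164), and by 0.49 in control cells, and with the replicate block it was lower in mutant cells in N2B27 (-0.32, limma adjusted p = 0.0295).

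Efnb2, a ligand of EphB receptors on chromosome 8, stood at 0.26, 0.79 and 0.32 in mutant N2B27 arrays, against 0.00, 0.40 and 0.35 in control N2B27 arrays. The values in ESC medium were -1.05 and -1.10 in mutant arrays, against -0.43, -0.08 and -0.32 in control arrays. The genotypes overlapped in N2B27 and did not in ESC medium. It was lower in mutant cells in ESC medium with a difference of -0.80 ± 0.17 (limma adjusted p = 0.0226), opposite in sign to the median of chromosome 8. That call was lost on leaving out control ESC replicate 2 or 3 or either mutant ESC array (limma adjusted p between 0.0635 and 0.146). Efnb2 rose with N2B27 by 1.53 ± 0.17 in mutant cells and by 0.53 ± 0.15 in control cells (limma adjusted p = 0.0289), the second of which ended on leaving out any 1 of 4 arrays (limma adjusted p between 0.0779 and 0.101). Its interaction was 1.00 ± 0.23 and was not called (limma adjusted p = 0.0586), though it was with the replicate block (1.10, limma adjusted p = 0.00826), with array weights (0.91, limma adjusted p = 0.00784) and without mutant N2B27 replicate 2 (0.84, limma adjusted p = 0.0446).

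Efnb1, on chromosome X, stood at 0.09, 0.46 and 0.04 in mutant N2B27 arrays, against -0.09, -0.12 and 0.02 in control N2B27 arrays. In ESC medium it stood at -0.08 and -0.20 in mutant arrays, against 0.38, 0.40 and 0.24 in control arrays. Mutant arrays were thus above control arrays in N2B27 and below them in ESC medium, with no overlap in either. The difference in ESC medium was -0.48 ± 0.12 (limma adjusted p = 0.0411) and the interaction 0.74 ± 0.16 (limma adjusted p = 0.0463), and each of these calls was lost on leaving out any 1 of 8 arrays (limma adjusted p up to 0.248 and 0.181). In control cells Efnb1 fell with N2B27 by 0.40 (limma adjusted p = 0.0184), a call that any 1 of 4 omitted arrays ended (limma adjusted p between 0.0558 and 0.0651). In mutant cells its difference was 0.34 and not called.

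The EphA receptors, tyrosine kinases that bind A-class ephrins, held the largest genotype differences of the set in each medium. Epha1 stood at 0.69, 0.84 and 0.26 in mutant N2B27 arrays, against 0.29, -0.09 and 0.00 in control N2B27 arrays. The ESC arrays gave -2.37 and -1.99 in mutant arrays, against -0.57, 0.14 and 0.09 in control arrays. The mutant ESC arrays lay far below the 9 others, and the genotypes overlapped in N2B27. Epha1 was lower in mutant cells in ESC medium with a difference of -2.06 ± 0.24 (limma adjusted p = 0.00107), or 4.18-fold, against a difference of 0.53 ± 0.21 in N2B27 that was not called (limma adjusted p = 0.195). The interaction of 2.60 ± 0.32 (limma adjusted p = 0.00507) was the largest of the set and the 1 interaction of the 5 that held under every alternative. With N2B27 it rose by 2.78 ± 0.24 in mutant cells (limma adjusted p = 4.4e-05), against 0.18 ± 0.21 in control cells, which was not called. The promoter of this gene, printed above, is the 1 of 4 with SMAD motif letters, which also occur in 49.6% (CAGAC) and 11.9% (GGCGCC) of all windows. A role of these letters in the Epha1 result was not tested.

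Epha2, an EphA receptor present in pluripotent cells, fell with N2B27 in both genotypes, and by less in mutant cells. It stood at -0.93, -0.82 and -1.53 in mutant N2B27 arrays, against -2.23, -2.27 and -2.16 in control N2B27 arrays. Its values in ESC medium were -0.09 and 0.11 in mutant arrays, against 0.63, 0.49 and 0.34 in control arrays. Mutant arrays were above control arrays in N2B27 and below them in ESC medium, without overlap. The medium difference was -1.10 ± 0.18 in mutant cells (limma adjusted p = 0.00141) and -2.71 ± 0.16 in control cells (limma adjusted p = 8.76e-06), a fall of 2.15-fold against 6.52-fold. In N2B27 Epha2 was higher in mutant cells by 1.12 ± 0.16 (limma adjusted p = 0.00424), while in ESC medium its difference of -0.48 was not called (limma adjusted p = 0.183). The interaction was 1.60 ± 0.24 (limma adjusted p = 0.0119), and without mutant ESC replicate 2 it was not called (limma adjusted p = 0.075). Of the 8 naive pluripotency markers, 3 were also higher in mutant cells in N2B27, against 4.1% of all genes. They were Zfp42 on chromosome 8 (1.78), Nr0b1 on chromosome X (1.37) and Esrrb on chromosome 12 (1.3). The 5 others were not called, with differences from -0.25 (Nanog) to 0.59 (Klf2). List means per array were -0.35 to -0.28 in mutant against -1.23 to -0.88 in control arrays. The part of these markers in the Epha2 result was not tested, nor was that of the chromosome shifts in the markers.

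Epha4, which binds ephrins of both classes, stood at -0.47, -0.13 and -0.42 in mutant N2B27 arrays, against 1.29 and 1.27 in mutant ESC arrays. In control cells it stood at -0.33, -0.41 and -0.39 in N2B27, against 1.95, 0.81 and 0.91 in ESC medium. It fell with N2B27 by 1.62 in mutant cells (SE 0.27, limma adjusted p = 0.00172) and by 1.60 in control cells (SE 0.24, limma adjusted p = 0.00107), with no overlap between media. Epha7 moved the opposite way, with -0.02, 0.11 and 0.04 in mutant N2B27 arrays, against -1.30 and -1.20 in mutant ESC arrays. In control cells Epha7 gave 0.25, 1.58 and 0.60 in N2B27, against -0.49, -0.69 and -0.52 in ESC medium, so the control N2B27 arrays were spread widely. It rose by 1.29 ± 0.29 in mutant cells (limma adjusted p = 0.00854), lost without mutant ESC replicate 2 (limma adjusted p = 0.0698), and by 1.38 ± 0.26 in control cells (limma adjusted p = 0.00349). Its genotype differences of -0.76 in N2B27 and -0.68 in ESC medium were not called (limma adjusted p = 0.131 and 0.253), though mutant arrays lay below control arrays in both media. The difference in ESC medium was called without control N2B27 replicate 2 (limma adjusted p = 0.00893) and with the compared groups alone (limma adjusted p = 0.0124). That in N2B27 was called without control N2B27 replicate 1 (-1.04, limma adjusted p = 0.0403) and with array weights (-0.88, limma adjusted p = 0.0393). The 5 other EphA genes were called nowhere, and Epha6 had the smallest range of the set, 0.17 over the 11 arrays.

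Of the 4 EphB genes, 2 rose with N2B27 in both genotypes, where 14.9% of all genes rose in mutant and 12.8% in control cells. Ephb6, a receptor whose kinase domain is inactive, stood at -0.07, 0.24 and 0.00 in mutant N2B27 arrays, against 0.48, 0.61 and 0.36 in control N2B27 arrays. In ESC medium the values were -0.34 and -0.58 in mutant arrays, against -0.25, -0.37 and -0.14 in control arrays. The genotypes were apart in N2B27 and overlapped in ESC medium. It was lower in mutant cells in N2B27 with a difference of -0.43 ± 0.11 (limma adjusted p = 0.0437), a call that ended on leaving out any 1 of 10 arrays (limma adjusted p up to 0.143). The call also ended with the compared groups alone, without chromosomes 8, X and Y and with clusters one by one (limma adjusted p = 0.0989, 0.0563 and 0.0522). Ephb6 rose with N2B27 by 0.52 ± 0.12 in mutant and 0.74 ± 0.11 in control cells. Ephb4, a receptor of Efnb2, rose by 0.52 in mutant and 0.41 in control cells. In mutant cells the call of Ephb6 was lost without mutant ESC replicate 3 (limma adjusted p = 0.105) and that of Ephb4 without mutant ESC replicate 2 (limma adjusted p = 0.059).

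**Figure D4:**
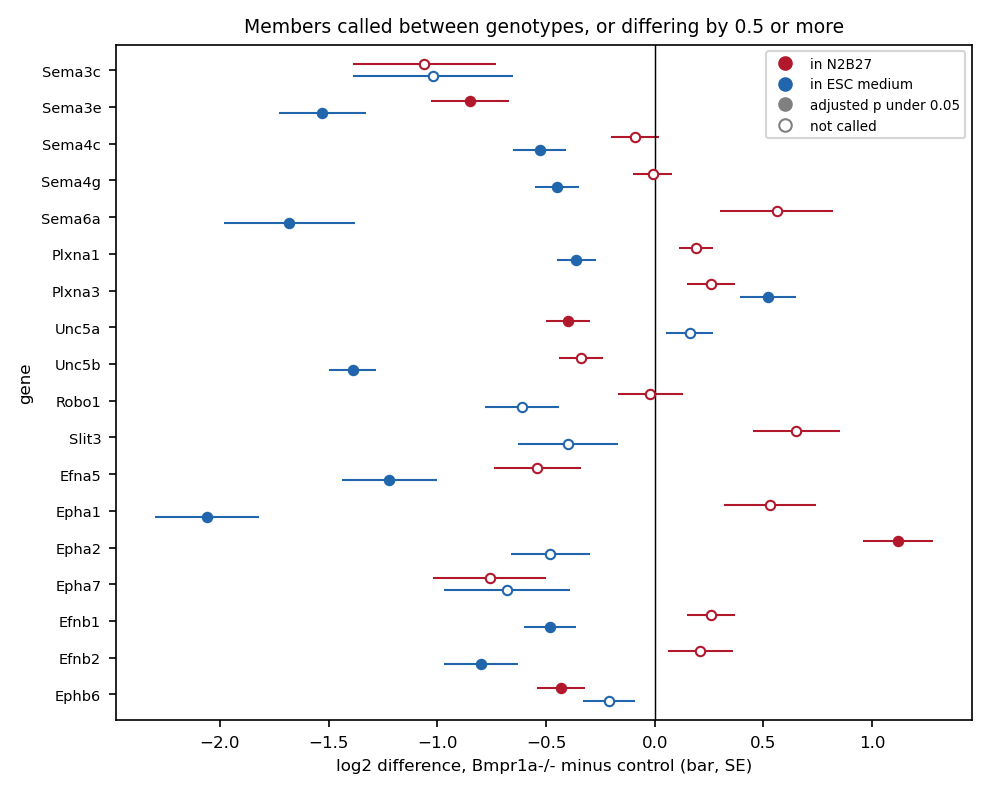
Log2 difference of mutant minus control cells in N2B27 and in ESC medium for 18 genes (rows), with bars of 1 SE and filled points for limma adjusted p under 0.05. Epha1, Sema6a, Sema3e and Unc5b lie furthest below 0 in ESC medium, and Epha2 lies furthest above 0 in N2B27.

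The 10 genes lower in mutant cells in ESC medium were 4 semaphorins, 2 ephrin-B genes and 1 each of the plexins, the Unc5 receptors, the ephrin-A genes and the EphA genes. None of the 4 EphB genes was called there by limma. At an unadjusted limma p under 0.05, 1 was lower, beside 1994 lower and 1545 higher of all 19935 genes. The count rests on few arrays: of the 10 lower calls made with all arrays, the number was 3 without mutant ESC replicate 2, 5 without mutant ESC replicate 3 or control ESC replicate 3, and 6 without control ESC replicate 2. Lower calls over all genes fell as well, to 130 without mutant ESC replicate 2, 263 without mutant ESC replicate 3, 300 without control ESC replicate 3 and 316 without control ESC replicate 2, against 609 with all arrays. Markers of other cells moved beside it. Of the 8 fibroblast and feeder cell markers 3 were lower in mutant cells in ESC medium, against 3.05% of all genes. These were Tagln with a difference of -2.23, Col1a1 with -1.32 and Col1a2 with -0.73. The 5 others were not called, with differences from -0.08 (Dcn) to 0.08 (Thy1), and the list median was -0.05. The mean of the list per array, which includes the 3 lower genes, was -0.48 to -0.39 in mutant against 0.04 to 0.16 in control ESC arrays. Of the 6 epiblast markers 2 were lower, Lef1 (-1.27) and Grhl2 (-0.70), against 3.05% of all genes. The 4 others were not called, with differences from -0.46 (Pou3f1) to 0.03 (Otx2). The list means, which include the 2 lower genes, were -1.06 to -0.78 in mutant against -0.50 to -0.20 in control ESC arrays. Of the 8 naive markers 2 were higher (list means 2.37 to 2.48 against 1.75 to 2.16), against 3.09% of all genes. These were Klf4 on chromosome 4 (0.64) and Zfp42 on chromosome 8 (0.88). The part of these cells or states in the result was not tested, and on baseline-relative values no marker can be said to be at 0.

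With the replicate block, used because N2B27 arrays of the same number deviated together, the genotype comparison in N2B27 gave 2 higher and 7 lower genes in place of 1 and 3. Over all genes the block gave 1126 higher and 543 lower calls in place of 817 and 327. In that medium, of 8 neuron markers 2 were higher in mutant cells, against 4.1% of all genes. They were Tubb3 on chromosome 8 (2.01) and Elavl3 on chromosome 9 (0.59), and the 6 others were not called, from -0.08 (Rbfox3) to 0.17 (Dcx). The list means, which include the 2 higher genes, were 0.19 to 0.21 in mutant against -0.27 to -0.07 in control N2B27 arrays. The list median difference was 0.12. Of 8 neural progenitor markers 1 was higher, Nes (1.27), and 1 lower, Msi1 (-0.71), against 4.1% and 1.64% of all genes. The 6 others were not called, from -0.33 (Zfp521) to 0.53 (Fabp7), with list means of 0.24 to 0.30 against 0.09 to 0.28. Of 8 endothelial markers 1 was higher, Tek (0.87). Of the 8 fibroblast and the 8 endoderm markers 1 each was lower, Col1a2 (-0.58) and Dab2 (-0.51). The 7 others of each of these 3 lists were not called. The part of the markers in the results was not tested.

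Partners and effectors of the same pathways were read from 5 lists, of which 64 of 68 genes were measured. With N2B27, 27 rose and 1 fell in mutant cells (42.2% and 1.56%, against 14.9% and 10.3% of all genes), with a median difference of 0.26. In control cells 25 rose and 3 fell (39.1% and 4.69%, against 12.8% and 13.3% of all genes), with a median of 0.24. Dpysl2, which carries semaphorin signals to microtubules, rose by 2.27 ± 0.22 in mutant and 1.36 ± 0.20 in control cells. Rnd3 rose by 1.69 in mutant and 1.19 in control cells, and the adhesion molecule Nrcam rose by 1.43 in mutant and 1.16 in control cells. Dpysl5 rose by 1.63 in mutant and 0.93 in control cells. Met, a receptor kinase that associates with class B plexins, rose by 1.63 in mutant and 0.74 in control cells. Enah, an actin regulator, fell by 0.93 in mutant and by 1.23 in control cells.

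Between genotypes in ESC medium 7 of the 64 were lower in mutant cells and 1 was higher (10.9% and 1.56%, against 3.05% and 3.09% of all genes). The lower ones included Met (-0.89 ± 0.20, limma adjusted p = 0.0256), Farp1, an exchange factor of plexin pathways (-0.77 ± 0.13, limma adjusted p = 0.00773), and Gpc1, a glypican that binds Slits (-0.67 ± 0.10, limma adjusted p = 0.00452). Rgmb, a repulsive guidance molecule that is also a BMP coreceptor, was lower with a difference of -0.58 ± 0.14 (limma adjusted p = 0.0402). In N2B27 2 of the 64 were called (3.12%, below the 5.74% of all genes). Of these 1 was higher, Crmp1 (0.65 ± 0.10, limma adjusted p = 0.00597), and 1 lower, Rgma (-0.38 ± 0.06, limma adjusted p = 0.0057), which binds neogenin and BMPs. Rgma stood at 0.55, 0.45 and 0.36 in mutant N2B27 arrays, against 0.84, 0.88 and 0.79 in control N2B27 arrays, with no overlap. Its interaction was -0.49 ± 0.09 (limma adjusted p = 0.0218), and those of Farp1 and Grip1, which binds ephrin-B tails, were 0.84 and 0.77 (limma adjusted p = 0.0415 and 0.0267).

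The 34 genes called nowhere ranged by 0.17 (Epha6) to 1.15 (Ntn1) over the 11 arrays. Among them were Nrp1, Dcc, Slit2, Robo2, Sema3a, Plxna2 and Plxna4, central in textbook accounts of axon guidance. That they were not called does not show that they did not change. For 5 genes, 1 of them called (Sema6b), 2 clusters were averaged, and the values of such a pair differed by up to 0.47 on an array (Ephb1).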

How the data were processed

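The authors deposited log2 values per transcript cluster of 11 one-colour arrays. The submitters' processing notes name RMA, which corrects background, normalizes arrays by quantiles and joins the probes of a cluster, and Affymetrix Expression Console 1.2. Base 2 is RMA's usual output and is stated by no label. Values run from -5.22 to 6.42 around a baseline per cluster that the sources used here do not explain, and 55.8% of the 28815 clusters hold an array at exactly 0. Brightness is therefore lost, which bars a filter on dim probes, and precision is limited by how few arrays there are.

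Of the clusters, 21780 carry 1 symbol, 1605 several and 5430 none. Those with 1 symbol were averaged per gene, giving 19935 genes, and names and chromosomes came from RefSeq (GRCm38.p6, 21689 clusters matched). The separate result of 1 pathway list is not reported here. The 66 members and all lists were chosen with earlier results of these data known. Group means of all 4 groups were fitted with limma 3.58.1 (lmFit, eBayes) in R 4.3.3, with 7 residual degrees of freedom, 2-sided tests and Benjamini-Hochberg adjustment over all genes. The code was tested on simulated data. Values on every array are given for genes called with a log2 difference of 1 or more in any comparison and for the largest of each family, and of the pathway lists up to 4 called genes per comparison are named. Same-numbered arrays deviated together between genotypes in N2B27 (r = 0.256, 0.43 and 0.158 across genes) and between media in control cells (0.138, 0.181 and 0.131). This pairing comes from the data, not from a label. For same-numbered arrays r was also 0.215 and 0.266 between media in mutant cells, and 0.037 and 0.284 between genotypes in ESC medium. In these the 2 mutant ESC arrays deviate by equal and opposite amounts, so the values are not independent. The alternatives were a replicate block, the compared groups alone, array weights, a trended prior, median centring, omission of chromosomes 8, X and Y, clusters one by one, and each array left out.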

Additional observations from a re-analysis of the deposited data

Results flagged for a closer look

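In 5 of the 66 genes the genotype difference itself differed between the media, by limma's interaction test, where 2.12% of all genes were called. The interaction was 2.60 for Epha1, 2.24 for Sema6a, 1.60 for Epha2, 1.05 for Unc5b and 0.74 for Efnb1. In Epha1 the difference was 0.53 in N2B27 and -2.06 in ESC medium, and in Sema6a 0.56 and -1.68. Epha2 differed by 1.12 in N2B27 and -0.48 in ESC medium. Unc5b stood at -1.03 and -0.96 in the mutant ESC arrays, below the 9 other arrays. Efnb1 lies on chromosome X, whose median interaction was -0.07, against 0.01 on the autosomes other than 8. The mutant ESC group holds 2 arrays, and no group is large enough here for a check for single stray arrays.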

How the results depend on the processing

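Of the differences of single genes, 88 were followed under the alternatives, 71 of them called and 17 not called but of 0.5 or more, and none of these 88 reversed. Smaller uncalled differences were not followed. Calls held under every alternative for 3 of 11 genes between genotypes in ESC medium, 1 of 4 in N2B27, 20 of 23 between media in control cells, 18 of 28 in mutant cells and 1 of 5 interactions. Array weights, which gave mutant N2B27 replicate 2 a weight of 0.235, raised the calls between genotypes in ESC medium to 2 higher and 18 lower, those in N2B27 to 5 higher and 11 lower, the lower calls between media in mutant cells to 10, and the interactions to 11 positive and 3 negative. The replicate block gave 0 higher calls between genotypes in ESC medium, 2 higher and 7 lower in N2B27, and 7 lower between media in mutant cells. In ESC medium and in mutant cells it rests on 2 pairs of same-numbered arrays. Their r was 0.037 and 0.284 between genotypes in ESC medium, and 0.215 and 0.266 between media in mutant cells. Between genotypes in ESC medium the block added 3 lower calls (Plxnb2, Robo1 and Sema5a) and ended that of Plxna1. Between genotypes in N2B27 and between media in control cells, the block changed no calls beyond those given above. The block called 7 interactions in place of 5, with Efnb2 and Slit3 added, and over all genes 487 positive and 170 negative. Without chromosomes 8, X and Y, 0 higher calls were made in ESC medium, since Plxna3 is on X, and 1 lower call was made in N2B27. Lower calls in N2B27 were 0 with the compared groups alone and 1 with clusters one by one. The cause of these changes was not tested. Leaving out 1 array in turn gave 0 to 2 higher and 3 to 11 lower calls between genotypes in ESC medium, 1 higher and 0 to 3 lower in N2B27, 16 to 20 higher and 4 to 6 lower between media in control cells, 16 to 25 higher and 3 to 8 lower in mutant cells, and 1 to 7 positive and 0 negative interactions. Without a mutant ESC array, the remaining one is assumed to vary like the other groups. Without mutant N2B27 replicate 2 there were 8 lower calls in mutant cells, against 4 with it. Array weights raised the calls over all genes too, to 1381 higher and 1757 lower between genotypes in ESC medium (615 and 609 without them), 1821 and 1061 in N2B27 (817 and 327), 3304 lower between media in mutant cells (2047), and 1246 positive and 536 negative interactions (312 and 110). The filter on dim probes and another background correction were not run, since centred values hold neither brightness nor background.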
